A study of Homo sapiens with 6 samples.

Results

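DEAD and DEAH box helicase genes were examined in OVCAR3 cells, a line of high-grade serous ovarian cancer, after short exposure to THZ531, a covalent inhibitor of the transcriptional kinases CDK12 and CDK13. The genes were taken from the table of normalised expression by their symbols, as every row named DDX or DHX followed by a number, with DDX3X added. This gave 53 of the 47577 loci in the table, and none of them was joined with another symbol. Of these, 49 genes (33 named DDX and 16 named DHX) reached a normalised value of 10 or more in 3 or more libraries out of 6, among 17568 loci that did so in all.

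The remaining 4 genes stayed under that minimum, and each is known mainly from germ cells or from the cancer-testis group. *DDX25* was at 0, 5.57 and 4.79 in the DMSO libraries and at 0 in all THZ531 libraries, and *DDX4* (VASA) was between 0 and 7.42 in DMSO and between 0 and 1.14 in THZ531. *DDX43* and *DDX53* were listed at 0 in all 6 libraries. A row at or near 0 is not a sign of a silent gene in this table, because *SF3B1*, a core splicing factor that every cell uses, was listed between 0 and 1.26.

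These helicases use ATP to separate short RNA duplexes or to strip proteins from RNA. They carry a shared core of conserved motifs, and the family name spells the residues of one of these motifs, which takes part in ATP hydrolysis. DEAH box members mostly drive the steps of the spliceosome and the assembly of ribosomes and are often switched on by proteins with a G-patch domain, whereas DEAD box members act throughout the life of an RNA, from transcription and splicing to nuclear export, translation and decay.

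The study compared 3 cultures given DMSO, the solvent, with 3 cultures given 200 nM THZ531, both for 6 h and otherwise grown alike, and sequenced their polyA plus RNA. All samples come from a single line. The titles of the samples name THZ531 and were followed here, although another label field gives the compound as THZ1, a relative, with an equal dose. In bulk RNA, a change in the RNA of each cell and a change in which cells are present cannot be told apart.

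Library depth, as reads assigned to loci, ran from 53054048 to 70986130, and replicates differed by more than sampling noise. All 12 markers chosen for the line passed the minimum, and *PAX8* was called lower in THZ531 among them (log2 fold change -3.18), with sums over the 12 of 504495 to 518417 in DMSO and 632520 to 647789 in THZ531. Of 8 markers of leukocytes, endothelium and fibroblasts, *CD3E* was at 0 and *PDGFRB* was under the minimum. The other 6 passed it, 3 of these were called higher (*COL1A1*, *COL3A1* and *VWF*), and the 8 summed to 2168 to 2513 in DMSO and 3779 to 4042 in THZ531. The part of these markers in the results was not tested.

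The motif that gives the family its name is shown for the genes on which the results turn, the called genes and the paralogue pairs, because it gave the family its name and its last codon differs between most DDX and most DHX genes. It was read from the coding sequence of the GENCODE v44 reference transcript of each gene on hg38. The coding bases were searched in frame on the coding strand for GAT or GAC, then GAA or GAG, then any codon, then GAT, GAC, CAT or CAC. Among several matches the one followed by the next conserved motif was kept, or else the one with an alanine codon (GCN) in the free position. Each window is 30 bases long, 5′ to 3′, with the 12 bases of the motif in capitals.

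DDX5: cttgtccttGATGAAGCAGATagaatgctt
DDX17: cttgtattgGACGAAGCTGACagaatgctt
DDX24: ctggtagtgGATGAGGCTGACcggatggtt
DDX56: ttggtggtgGACGAAGCTGACcttcttttt
DDX28: ttggtgttgGATGAGGCAGACacactgctg
DDX21: gttgtcctgGATGAAGTGGACcagatgttg
DDX50: gttgtgcttGATGAAGTGGATcagatgtta
DDX39B: tttattttgGATGAATGTGATaagatgctt
DDX39A: tttgtgctgGACGAGTGTGACaagatgctg
DDX19B: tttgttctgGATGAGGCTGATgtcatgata
DDX19A: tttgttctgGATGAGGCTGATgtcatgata
DHX38: atcatcatgGACGAGGCCCACgagcgctcc
DHX36: atcgtacttGATGAAATCCATgaaagaaat
DHX34: ctgattgtgGATGAAGTCCATgagcggcat
DDX60: gttatatttGATGAGGTTCATtgtcttggt

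Of the 49 genes past the minimum, 25 encode the alanine form with aspartate last (the DEAD spelling), and all 25 are DDX genes. The alanine form with histidine last (the DEAH spelling) was found in 9, namely 8 DHX genes and *DDX11*. A further 5 DDX genes, among them *DDX21* and *DDX50*, have another codon in that position with aspartate last, and 9 genes (7 DHX, with *DDX58* and *DDX60*) have another codon in that position with histidine last. No such run was kept for *DHX32*. The called genes below come from each of these forms except the variant with aspartate last.

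Which helicase genes changed with THZ531 was the question of the main comparison. With THZ531, 9 of the 49 genes (18.4%) passed a fold change of 1.5 with an unadjusted p of at most 0.05 (limma), against 39.5% of all loci tested and 37% of those with a symbol. *DDX24*, *DHX36* and *DHX38* rose by 1.51 to 1.64-fold, while *DHX32*, *DHX34*, *DDX60*, *DDX56*, *DDX17* and *DDX28* fell, *DHX32* by 8.92-fold and the others by 1.59 to 2.23-fold. The 3 that rose lost that call, though not their sign, when libraries were scaled to the same total or to RPL34. Of all loci tested, 15.7% were called higher and 23.9% lower.

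Many of the other helicase genes differed by less than 1.5-fold. At an adjusted p of at most 0.05 (limma, Benjamini-Hochberg over all loci) and any fold, 22 of the 49 genes were higher and 17 lower, against 34.6% and 34.1% of all loci, and 7 of the 22 turned below 0 when library totals were made equal and 16 when scaled to RPL34, while none of the 17 turned above 0. Of the 49, 30 (61.2%) passed the adjusted p with a fold change under 1.5. The same held for 29.9% of all loci and 51.9% of loci with a symbol and a DMSO mean of at least 500. The median log2 fold change of the family was 0.03 against -0.01 over all loci, and 26 of the 49 genes lay above the latter. The median size of the change was 0.29 on the log2 scale, against 0.50 over all loci.

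The DMSO and THZ531 libraries did not overlap for 39 of the 49 genes (79.6%), against 71.7% of all loci. Helicase genes were well expressed, with a median DMSO value of 4850 against 535 over all loci. Among loci with a symbol and a DMSO mean of at least 500, 8 of 47 helicase genes (17%) were called, against 30% of the 8842 loci, and the groups did not overlap for 80.9% of these helicase genes, against 83.3% of the loci.

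**Figure D1:**
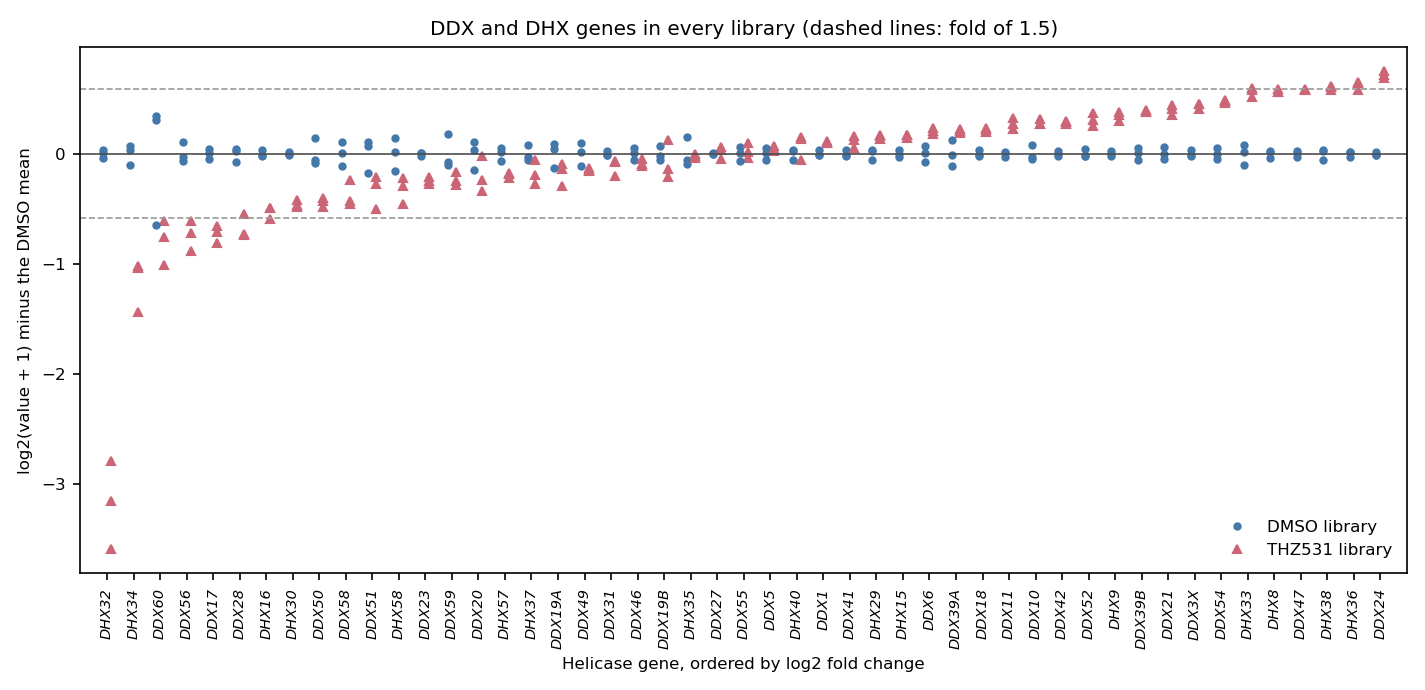
The 49 helicase genes in order of log2 fold change, with log2(value + 1) of each library minus the mean of the 3 DMSO libraries on the vertical axis (circles, DMSO; triangles, THZ531; dashed lines, a fold of 1.5). Triangles of *DHX32* lie far below those of every other gene, and most other genes keep within the dashed lines, with the genes on the right moving down under other scalings of the libraries.

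Splicing helicases were split in direction. Of 14, *DHX38* was called higher and *DDX17* lower. At the adjusted p, 7 were higher and 3 lower with the scaling as deposited, which is the scaling of all counts by role that follow. Of all loci, 39.5% were called, and at the adjusted p 34.6% were higher and 34.1% lower. *DHX38* (PRP16), which acts at the second step of splicing, was at 5699, 6004 and 6046 in the DMSO libraries and at 9080, 8824 and 8983 in THZ531. All 3 treated libraries stood above all controls. Its log2 fold change was 0.60 ± 0.04 (SE, n = 3 per group; adjusted p = 1.2e-09, limma). That value lies close to the limit of 0.58, and the call was lost without DMSO replicate 1 (0.57), with upper quartile scaling and with edgeR (both 0.58). The gene lies at chr16:72093847-72112912 (hg38). Of its reference transcript, 10.1% matches *PMFBP1* transcripts base for base, read on either strand.

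*DDX17* (p72), a transcription and splicing coregulator, was at 5531, 5673 and 5344 in DMSO and at 3359, 3137 and 3489 in THZ531. The groups stood well apart, at a log2 fold change of -0.73 ± 0.05 (adjusted p = 1.4e-09). Its closest relative *DDX5* (p68) was at 38776, 40399 and 41606 in DMSO and at 42276, 40909 and 41326 in THZ531. For *DDX5* the groups overlapped, and the log2 fold change was 0.04 ± 0.03 (adjusted p = 0.26).

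The spliceosomal DEAH box helicases took different directions. *DHX8* (PRP22), which releases the spliced mRNA, had a log2 fold change of 0.57 and *DHX15* (PRP43), which takes the spliceosome apart, of 0.16, with *DHX15* at -0.08 after scaling to the same total. *DHX16* (PRP2), which activates the spliceosome, was at -0.53, just inside the limit on the lower side. *DHX35*, found in the catalytic spliceosome, was among the least changed genes, with 984, 1012 and 1163 in DMSO and 1035, 1048 and 1020 in THZ531 (log2 fold change -0.02). With the deposited scaling these 4 genes thus ran from just under the limit on one side to just under it on the other. With equal totals *DHX16* was called lower (-0.77) and *DHX8* was at 0.33. With scaling to RPL34 *DHX16* was called lower as well (-1.02) and *DHX8* was at 0.08.

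Among the DEAD box splicing helicases, *DDX23* (PRP28) was at -0.24 and *DDX42*, a partner of the U2 particle, at 0.29, while *DDX46* (PRP5) was at -0.08 and *DDX20* (Gemin3) at -0.20, the last pair not past the adjusted p. *DDX41* was at 0.11, and *DHX9* (RNA helicase A), which unwinds double-stranded RNA and R-loops, at 0.34. Of these, *DDX41* and *DDX42* turned below 0 with scaling to RPL34, as did *DHX9*, and *DDX41* also with the same total.

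**Figure D2:**
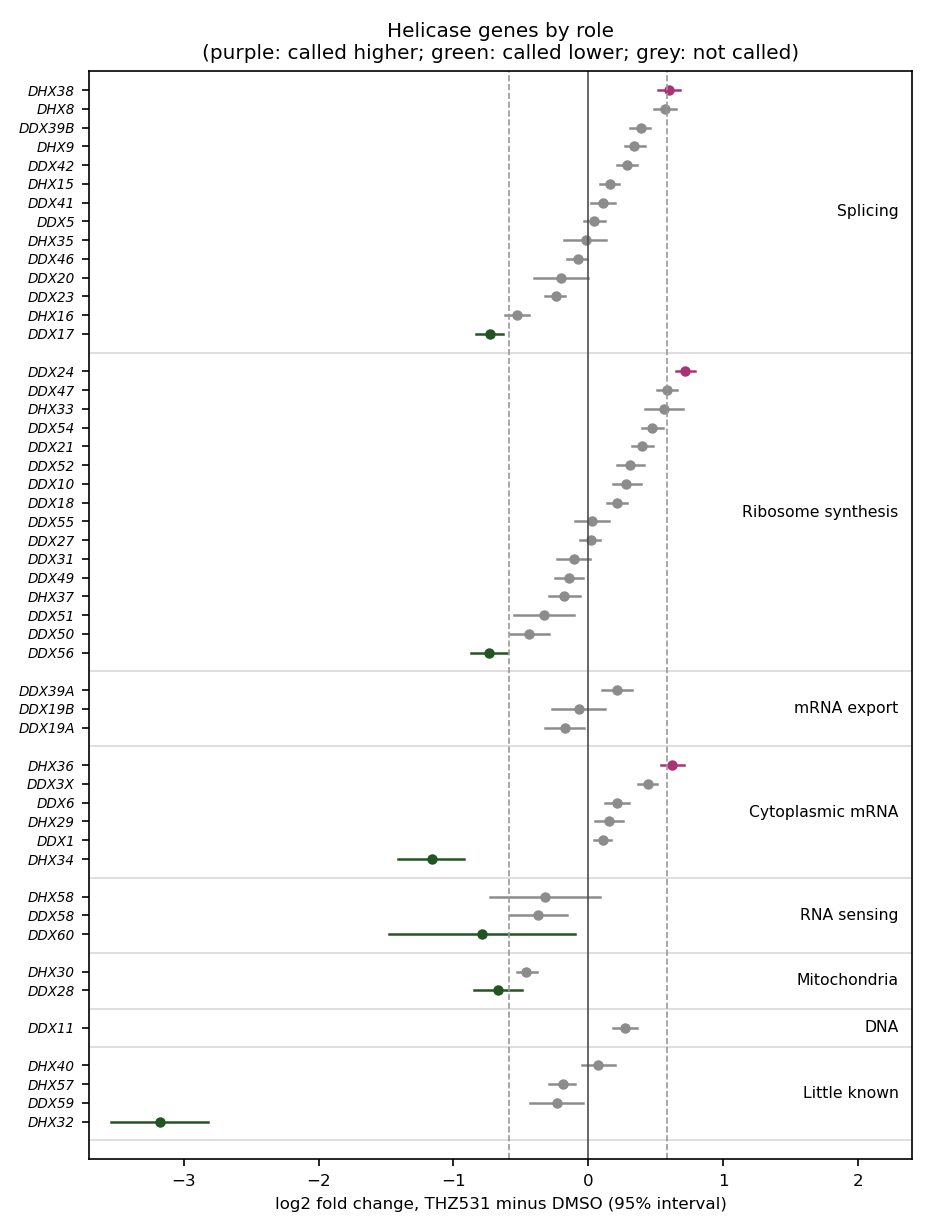
The log2 fold change of each helicase gene, THZ531 minus DMSO, with its 95% interval (horizontal axis), grouped by role (purple, called higher; green, called lower; grey, not called; dashed lines, a fold of 1.5). Splicing and ribosome genes spread to both sides of 0. The points of the 3 genes placed under RNA sensing and the 2 under mitochondria lie below 0. All points move left together, many of them below 0, under scaling to the same total or to RPL34.

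Helicases of ribosome synthesis formed the largest role, with 16 genes, of which *DDX24* was called higher and *DDX56* lower. At the adjusted p, 8 were higher and 5 lower, against 34.6% and 34.1% of all loci. *DDX24*, a nucleolar helicase, was at 12780, 12790 and 12995 in DMSO and at 21640, 20658 and 21120 in THZ531. This was the largest increase in the family (log2 fold change 0.72 ± 0.03, adjusted p = 3.1e-11), and replicates of each group lay close together. The gene lies at chr14:94048287-94081212 (hg38), and 11.6% of its reference transcript matches *OTUB2* transcripts base for base, read on either strand. *DDX56*, which acts in ribosomal RNA processing, was at 4131, 3762 and 3666 in DMSO and at 2091, 2334 and 2525 in THZ531. It moved the opposite way by a similar amount (-0.74 ± 0.07, adjusted p = 4.9e-08).

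Several nucleolar genes reached close to the limit from below. *DDX47* was at 0.58 and *DHX33* at 0.56 on the log2 fold change scale, and leaving out DMSO replicate 3 brought both past the limit (0.59 and 0.60), as leaving out DMSO replicate 1 did for *DDX47* (0.59). Almost all of the *DDX47* reference transcript (99.7%) is shared base for base with transcripts annotated to *APOLD1*, so its value may hold reads of either. *DDX54* was at 0.47, *DDX52* at 0.31 and *DDX10*, the longest gene of the family at 276 kb, at 0.28. All 3 were under 0 with scaling to RPL34.

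The genes of ribosome synthesis that were lower besides *DDX56* changed less. *DDX50* was at -0.44, *DDX51* at -0.33, *DHX37* at -0.18 and *DDX49* at -0.14. With equal totals *DDX50* was called lower (-0.68), and with scaling to RPL34 all of these were called lower. The remaining members *DDX31* (-0.11), *DDX27* and *DDX55* did not pass the adjusted p. *DDX27* was at 13233, 13191 and 13311 in DMSO and at 13804, 12844 and 13557 in THZ531, and *DDX55* was at 1829, 1744 and 1908 in DMSO and at 1781, 1846 and 1951 in THZ531. Together with *DHX35*, they were the 3 genes with the smallest change (log2 fold change 0.02 for *DDX27* and 0.03 for *DDX55*).

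Helicases of translation and mRNA decay were higher with 1 exception. Of 6 cytoplasmic genes past the minimum, 5 were higher at the adjusted p and *DHX34* was lower, against 34.6% and 34.1% of all loci. *DDX1*, *DDX6* and *DHX29* turned below 0 with scaling to the same total and *DDX3X* with scaling to RPL34. *DHX36*, which resolves G-quadruplexes, was at 5356, 5184 and 5335 in DMSO and at 8318, 7891 and 8263 in THZ531. The groups did not overlap (log2 fold change 0.62 ± 0.04, adjusted p = 8.7e-10). *DDX3X*, which helps translation begin on structured mRNAs, was at 0.44, *DDX6*, a repressor of translation in P-bodies, at 0.21, *DHX29*, a helicase of ribosomal scanning, at 0.15 and *DDX1* at 0.11.

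*DHX34*, a helicase of nonsense-mediated decay at chr19:47349315-47386630 (hg38), was at 699, 720 and 638 in DMSO and at 253, 333 and 337 in THZ531. Each treated library was at less than every control (log2 fold change -1.16 ± 0.12, adjusted p = 1.9e-07). It remained called at a fold change of 2, as did *DHX32*, and no other member was.

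The 3 genes placed under RNA sensing lay below 0, and 2 were lower at the adjusted p, against 34.1% of all loci. Their levels were low for the family (median DMSO value 116, against 4850). Each gene was placed under 1 role by hand, so a gene with a further role is not counted there. *DDX60*, an interferon-induced helicase, was at 72.2, 74.2 and 36.7 in DMSO and at 37.8, 28.4 and 34.1 in THZ531. The groups overlapped, because DMSO replicate 3 lay below THZ531 replicate 1. Its log2 fold change was -0.79 ± 0.32 (adjusted p = 0.041), and the call was lost without DMSO replicate 1 (-0.64), DMSO replicate 2 (-0.62) or THZ531 replicate 2 (-0.68). *DDX58* (RIG-I), the sensor of viral RNA, was at -0.37 (adjusted p = 0.0032) and its regulator *DHX58* (LGP2) at -0.32 (adjusted p = 0.15). Most of the *DDX58* reference transcript (96.6%) is shared with a second gene model without a symbol.

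The 2 members placed under mitochondria were lower at the adjusted p, against 34.1% of all loci. With the deposited scaling *SUPV3L1*, a mitochondrial helicase from the list of other RNA helicases, was higher (log2 fold change 0.32). *DDX28*, which acts in assembly of the mitochondrial ribosome, was at 864, 805 and 873 in DMSO and at 509, 580 and 507 in THZ531. The groups stood apart (log2 fold change -0.67 ± 0.08, adjusted p = 2.5e-06). It is the only expressed member without an intron (chr16:68020916-68023442, hg38). *DHX30*, of mitochondrial RNA granules, was at -0.46 (adjusted p = 1.1e-08).

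*DHX32*, a putative DEAH box helicase of little known function at chr10:125836337-125896458 (hg38), changed most. It was at 741, 726 and 704 in DMSO and at 80.6, 59.1 and 104 in THZ531. Even the highest treated library was far under the lowest control, and the log2 fold change was -3.18 ± 0.17 (adjusted p = 1.4e-10). The downstream end of the locus overlaps *BCCIP* on the other strand by 17359 bases, and 13.4% of the *DHX32* reference transcript matches *BCCIP* transcripts base for base, read on either strand. *BCCIP* was at 5002, 5238 and 5268 in DMSO and at 6547, 6442 and 6506 in THZ531 (log2 fold change 0.33). The library kit keeps strand, but whether the counting used it is not given in the sources used here.

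With the deposited scaling the other little-known members *DDX59* (-0.23), *DHX57* (-0.19) and *DHX40* (0.07) stayed well inside the limit. So did *DDX11* (ChlR1), a DNA helicase of sister chromatid cohesion, at 0.27. With scaling to RPL34 *DDX11* turned below 0, and *DDX59* and *DHX57* were called lower. Among the 3 genes of mRNA export none was called, against 39.5% of all loci, and 3 genes are too few to compare with that share. *DDX19B* (DBP5), which remodels mRNPs at the nuclear pore, was at -0.07.

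Levels were compared per kb of the reference mRNA, in normalised values. *DDX39B* (11059) and *DDX5* (10928) were the most abundant in DMSO, and their libraries overlapped (10656 to 11437 and 10525 to 11294). *DDX21* (7377, from 7116 to 7671), *DDX1* (6827, from 6751 to 6973) and *DHX9* (5598, from 5511 to 5688) followed, each with libraries apart from the next. The transcript of *DDX39B* is contained whole in a read-through transcript with its neighbour *ATP6V1G2*, so reads of both cannot be told apart. *DDX60* was lowest, at 10.2.

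Per library, the most abundant genes changed little or modestly. *DDX39B* (UAP56), which serves spliceosome assembly and export, was at 19225, 18632 and 17913 in DMSO and at 24517, 24216 and 24229 in THZ531. *DDX21*, a nucleolar helicase of ribosomal RNA synthesis, was at 33188, 34258 and 35779 in DMSO and at 45451, 43961 and 46666 in THZ531. Groups of both were apart, at log2 fold changes of 0.39 and 0.40, and turned below 0 only with scaling to RPL34. *DDX1* was at 16787, 16770 and 17320 in DMSO and at 18416, 18127 and 18180 in THZ531. *DHX9* was at 25133, 25556 and 24763 in DMSO and at 32775, 32144 and 30883 in THZ531. For these as well, all treated libraries lay above all controls.

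Across the 49 genes, those with higher DMSO levels tended to have higher log2 fold changes (Spearman's rho = 0.44 with the level per kb and 0.52 with the normalised value). For all loci with a symbol the latter was 0.18. Both measures share the DMSO libraries, and the values are given as a description. Gene span (rho = 0.00), number of introns (0.10), first intron (0.03) and longest intron (0.01) showed almost no relation to the change in the family.

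**Figure D3:**
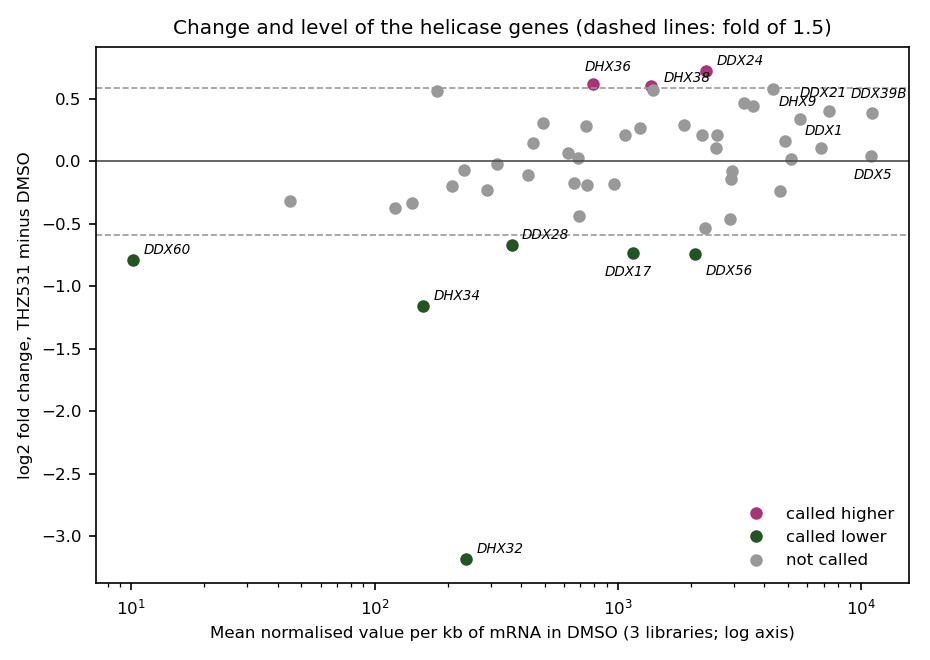
Log2 fold change of the 49 helicase genes, THZ531 minus DMSO (vertical axis), against the mean DMSO value per kb of mRNA (horizontal log axis). Called genes, in purple (higher) and green (lower), include none of the 5 most abundant, and the 3 in purple fall under the 1.5-fold line with scaling to the same total or to RPL34.

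Pairs of close relatives, 4 in all, were compared by the ratio of their values within each library, which does not depend on scaling. With 3 against 3 libraries a two-sided exact permutation test cannot go below p = 0.1, so none of these differences can pass a threshold of 0.05, and the 3 pairs at that p had 0.133 after adjustment over the 4 pairs. The *DDX5*/*DDX17* ratio was 7.01, 7.12 and 7.78 in DMSO and 12.6, 13 and 11.8 in THZ531. On the log2 scale it went from 2.87 ± 0.08 to 3.64 ± 0.07 (SD, n = 3), a difference of 0.77 with groups that did not overlap (exact p = 0.1). These genes share 68.7% of their aligned coding bases and differ at 6 of the 30 bases shown above.

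The *DDX21*/*DDX50* ratio was 17.4, 21.2 and 21.6 in DMSO and 35.5, 33.6 and 37.9 in THZ531. It shifted from 4.32 ± 0.17 to 5.15 ± 0.09 on the log2 scale (SD, n = 3), a difference of 0.83 with groups apart (exact p = 0.1). *DDX50*, a neighbour of *DDX21* on chromosome 10, was at 1902, 1618 and 1656 in DMSO and at 1280, 1306 and 1231 in THZ531. The windows of this pair differ at 4 of 30 bases, and 69.1% of the aligned coding bases are the same.

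The other two pairs moved less. *DDX39A* (URH49), the relative of *DDX39B* in mRNA export, was at 4154, 3781 and 3534 in DMSO and at 4355, 4456 and 4412 in THZ531, and the *DDX39B*/*DDX39A* log2 ratio went from 2.28 ± 0.07 to 2.46 ± 0.03 (SD, n = 3; difference 0.18, exact p = 0.1). *DDX19B* was at 799, 733 and 751 in DMSO and at 657, 691 and 831 in THZ531. *DDX19A* was at 1976, 2045 and 1759 in DMSO and at 1805, 1571 and 1746 in THZ531. The *DDX19B*/*DDX19A* ratios overlapped between groups (log2 -1.34 ± 0.13 and -1.24 ± 0.20, SD, n = 3; difference 0.10, exact p = 0.4). These last genes have the same bases throughout the window and 95.3% identical coding bases, so reads could be split between them.

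**Figure D4:**
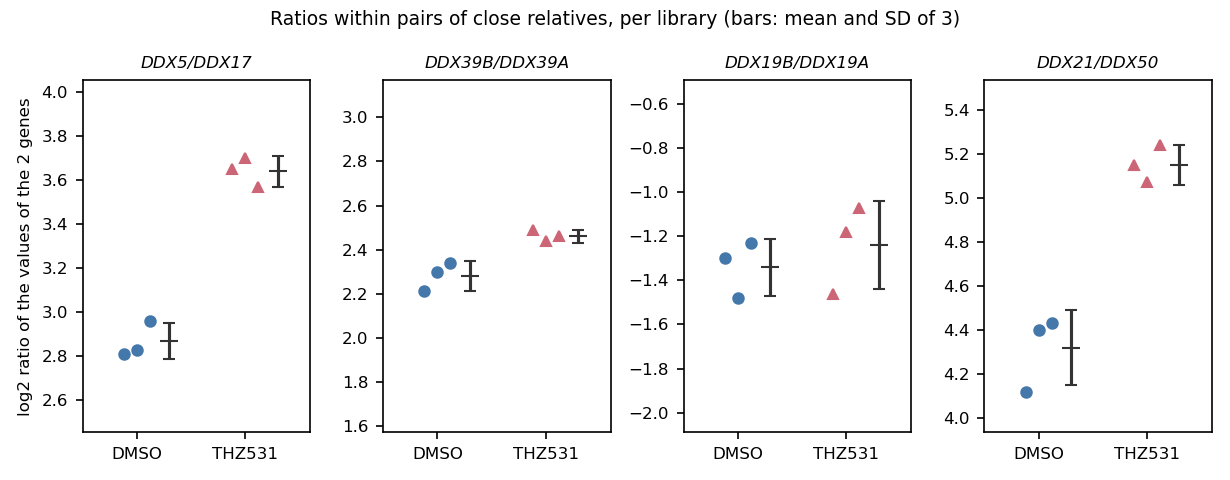
Log2 ratio of the values of both genes of each pair (vertical axes, all of the same height) in each DMSO (circles) and THZ531 (triangles) library, with the mean and SD of 3. *DDX5*/*DDX17* and *DDX21*/*DDX50* shift upward by 0.77 and 0.83, *DDX39B*/*DDX39A* by 0.18, and the *DDX19B*/*DDX19A* points overlap.

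Other RNA helicases and helicase partners were counted from lists written by hand. Of 20 RNA helicases with other names past the minimum, 3 were called. That was 15%, against 39.5% of all loci and 30% of loci with a symbol and a DMSO mean of at least 500. At the adjusted p 12 were higher and 4 lower, with a median log2 fold change of 0.23. *IGHMBP2* was at 792, 767 and 712 in DMSO and at 1441, 1352 and 1540 in THZ531 (0.93), a call lost with scaling to RPL34 (0.44). *DQX1* was at 10.3, 3.71 and 20.7 and at 31.5, 23.9 and 17.1 (1.22, adjusted p = 0.065, groups overlapping). The DMSO libraries of *DQX1* alone would not have reached the minimum, so the filter favoured a rise. Its call was lost with edgeR, DESeq2, a pseudocount of 0.1, no minimum and 2 scalings (same total and RPL34), and without any of 4 libraries in turn (DMSO replicates 1 and 2 and THZ531 replicates 1 and 2). The DEAD box translation factors *EIF4A1* and *EIF4A2*, which bear no DDX symbol, were at 0.51 and -0.01.

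Genes of proteins with a G-patch, a domain of proteins that often switch on DEAH box helicases, were called in 7 of 21, 3 higher and 4 lower. That was 33.3%, against 39.5% of all loci and 30% of loci with a symbol and a DMSO mean of at least 500. At the adjusted p 10 were higher and 8 lower (median -0.10). *GPANK1* fell most, with 829, 1081 and 977 in DMSO and 297, 290 and 279 in THZ531 (-1.73). *GPATCH1*, a partner in splicing, was at 1090, 1040 and 932 in DMSO and at 364, 425 and 377 in THZ531 (-1.39). *GPATCH4* was at 904, 808 and 805 and at 404, 346 and 446 (-1.08). In each the groups were apart. *NKRF*, a partner of *DHX15*, rose from 4167, 4487 and 4701 to 8915, 8520 and 8434 (0.95). *GPATCH2L* was at 1100, 1073 and 1050 in DMSO and at 1889, 1863 and 1951 in THZ531 (0.82), and *CMTR1*, a cap methyltransferase that binds *DHX15*, at 874, 811 and 744 and at 1271, 1223 and 1274 (0.64). None of these 3 was called with scaling to RPL34, nor *GPATCH2L* and *CMTR1* with equal totals, and *CMTR1* also lost its call without DMSO replicate 3 (0.58).

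Partners of DEAD box helicases were called in 4 of 27, 1 higher and 3 lower. That was 14.8%, against 39.5% of all loci and 30% of loci with a symbol and a DMSO mean of at least 500. At the adjusted p 8 were higher and 10 lower (median -0.02). *EIF4G3*, a scaffold of translation initiation, was at 2086, 2081 and 2234 in DMSO and at 1016, 1026 and 1130 in THZ531 (-1.01). *GEMIN2*, which works with *DDX20* in the SMN complex, was at 529, 521 and 516 and at 335, 303 and 354 (-0.66), and *NUP42*, of the nuclear pore, at 463, 543 and 485 and at 389, 306 and 296 (-0.60). The call of *NUP42* was lost with a pseudocount of 10 and without DMSO replicate 2 (-0.53), THZ531 replicate 2 (-0.55) or THZ531 replicate 3 (-0.52). *POLDIP3*, of the export complex with *DDX39B*, was at 2951, 2917 and 3004 in DMSO and at 4660, 4641 and 4770 in THZ531 (0.67), a call lost with equal totals (0.42) and with RPL34 (0.17). Groups were apart for all 4.

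Of 11 loci without a symbol inside helicase genes, 1 passed the minimum, within intron 17 of the 21 introns of *DHX35*, on the same strand (chr20:39023870-39024487, hg38). It was at 7.94, 12.1 and 7.98 in DMSO and at 18.9, 28.4 and 20.5 in THZ531. Treated libraries all lay above controls, at a log2 fold change of 1.19 ± 0.47 (adjusted p = 0.032). Among the controls only DMSO replicate 2 reached a value of 10, so the locus passed the minimum through its THZ531 libraries. The filter thus favoured a rise, and the gap between the groups and its p-value are partly built in. The call was lost with scaling to the same total or to RPL34, at a minimum of 50, and without DMSO replicate 1, DMSO replicate 3 or THZ531 replicate 2. Its host *DHX35* stayed level, as given above.

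Scaling set how many genes counted as higher or lower. The deposited size factors leave the median locus near 0, whereas scaling every library to the same total shifted log2 fold changes by -0.24 and scaling to *RPL34*, the reference gene of the qPCR assays, by -0.49. Equal totals gave 0 helicase genes called higher and 10 lower, and *RPL34* gave 0 and 20. The genes that gained a call with equal totals were *DDX50*, *DDX58*, *DHX16* and *DHX30*, all lower. With equal totals 20.4% of the helicase genes were called, against 41.3% of all loci. With *RPL34* these shares were 40.8% and 49%. Such a scaling adds about the same shift to every gene, so it leaves differences between genes as they are.

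**Figure D5:**
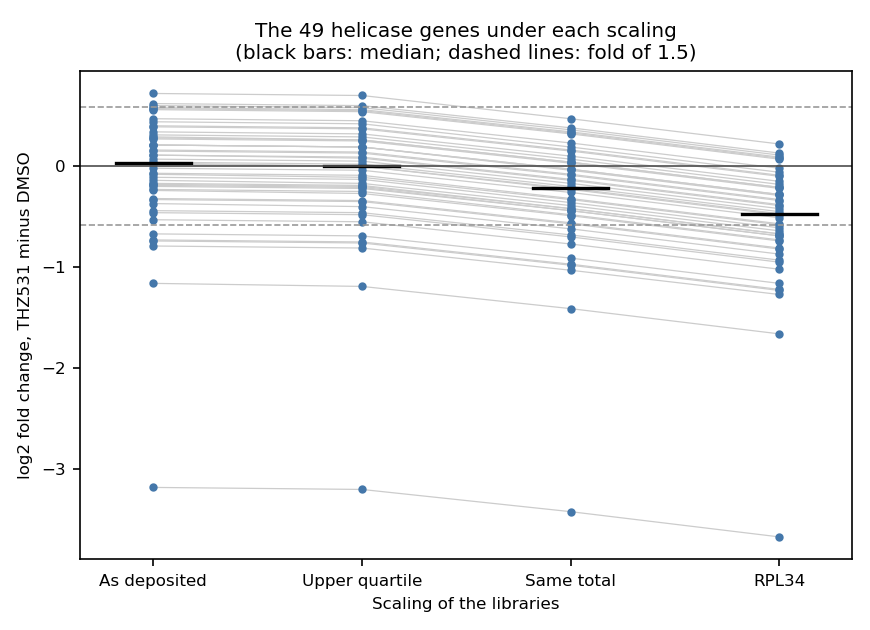
Log2 fold changes of the 49 helicase genes, THZ531 minus DMSO (vertical axis), under 4 scalings of the libraries (horizontal axis), with grey lines joining each gene, black bars at the median and dashed lines at a fold of 1.5. The median moves from 0.03 as deposited to -0.22 when totals are equal and -0.47 by RPL34, with all genes shifted alike.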

How the data were processed

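RNA-seq of OVCAR3 cells (DMSO, 3 libraries; 200 nM THZ531 for 6 h, 3 libraries) was analysed. The authors mapped reads to hg38 with STAR (2.7.5a per the submitters' processing notes), counted them with featureCounts on FAST DB loci and deposited one table of DESeq2-normalised values, a signal equal to the read count divided by a size factor per library, not corrected for length. Size factors ran from 0.794 to 1.26, and 100% of values came out as whole reads (tolerance 0.01). The setting for strand is not given in the sources used here. No column was left out.

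Loci that reached a value of 10 in 3 or more libraries were tested with limma 3.58.1 (trended variance, R 4.3.3) on log2(value + 1), without covariates. A fold change on this scale understates that of low genes. A call needs a fold change of 1.5 and an unadjusted p of 0.05, with Benjamini-Hochberg adjustment over all loci. Ratios of pairs were tested with the exact permutation test. Scripts were tested on simulated data. Replicates are given as biological repeats, and the p-values measure the spread between them.

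Helicase genes, roles and lists were chosen with earlier results of these data known. Values per library are given for called members, the 5 most abundant per kb, the 3 least changed, the 4 pairs, called loci inside members and the 3 most changed called genes in each direction of each other list. A called gene among these is not reported here. Gene models are those of GENCODE v44. Other pseudocounts, minimums, scalings, call rules, count tools (edgeR 4.0.16, DESeq2 1.42.0), a replicate block and leaving out each library were tried.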

Additional observations from a re-analysis of the deposited data

How the results depend on the processing

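For single helicase genes, 881 results were obtained under the alternatives. Of these, 19 lost the call, 21 gained it and 23, of genes past the adjusted p, reversed, all 23 with another scaling. The 10 genes not past the adjusted p changed sign 12 more times, 8 by scaling (*DDX5*, *DDX27*, *DDX55* and *DHX40*) and 4 with a library left out (*DDX27*, *DDX55* and *DHX35*, each between -0.01 and 0.05). With the same total, *DDX6* was at -0.04, *DDX39A* -0.03, *DDX1* -0.14, *DDX18* -0.03, *DHX15* -0.08, *DHX29* -0.09 and *DDX41* -0.13 on the log2 scale. With *RPL34*, *DHX9* was at -0.15, *DDX21* -0.09, *DDX10* -0.21, *DDX6* -0.29, *DDX11* -0.22, *DDX54* -0.02, *DDX42* -0.21, *DDX39A* -0.28, *DDX1* -0.39, *DDX18* -0.28, *DHX15* -0.33, *DHX29* -0.34, *DDX41* -0.38, *DDX3X* -0.06, *DDX52* -0.18 and *DDX39B* -0.10. Scaling to the same total gave 0 helicase genes called higher and 10 lower, a median of -0.22 and 0 called loci inside members. Of all loci, 41.3% were called with that scaling, against 20.4% of the helicase genes. *RPL34* gave 20 called, 0 higher and 20 lower, a median of -0.47, 11 G-patch partners, 12 DEAD box partners and 0 loci inside members. Those 20 were 40.8% of the helicase genes, against 49% of all loci. The median was 0.00 with upper quartile scaling and 0.00 with edgeR, and a minimum of 50 left 0 loci inside members and *DDX60* untested. By its stricter rule, a fold change of 2 left 2 helicase genes (0 higher, 2 lower), 1 other helicase, 3 G-patch partners and 1 DEAD box partner. Those 2 were 4.08% of the helicase genes, against 23% of all loci. Without any minimum, *DDX25* was also called. Leaving out 1 library gave 8 to 11 helicase genes called, 3 to 5 higher (5 without DMSO replicate 3) and 5 to 6 lower, a median between 0.01 and 0.06, 0 to 1 loci inside members, 2 to 4 other helicases (*DQX1* lost its call without DMSO replicate 1 or 2 or THZ531 replicate 1 or 2), 3 to 4 DEAD box partners and 7 G-patch partners each time. Of all loci, 37.7% to 38.7% were called with 1 library left out. The ratio differences then ranged from 0.74 to 0.82 (*DDX5*/*DDX17*), 0.74 to 0.89 (*DDX21*/*DDX50*), 0.14 to 0.21 (*DDX39B*/*DDX39A*) and 0.02 to 0.21 (*DDX19B*/*DDX19A*). Where no construction gives it, the cause was not tested. Replicate numbers did not pair the libraries (correlations of same-numbered deviations 0.00168, 0.0186 and -0.0393), and the replicate block called 9 helicase genes and 6918 loci, and 2 other helicases, without *DQX1*.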

Other observations

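Several helicase genes overlap an expressed gene on the other strand, 7 such neighbours lying across the start of a helicase gene and 10 across its end. *DUS2*, a tRNA-modifying enzyme that overlaps the start of *DDX28* by 201 bases, was at 1339, 1370 and 1186 in DMSO and at 278, 316 and 294 in THZ531. Its log2 fold change was -2.13 (adjusted p = 8.2e-12, limma), beside -0.67 for *DDX28*, and both genes were lower. *GTF3C4*, a subunit of the RNA polymerase III factor TFIIIC that overlaps the start of *DDX31* by 369 bases, had a log2 fold change of 0.93 (adjusted p = 6.7e-12), beside -0.11 for *DDX31*. *CEP95*, which overlaps the start of *DDX5* by 105 bases, was at -0.79 (adjusted p = 2.6e-09), beside 0.04 for *DDX5*, and *TXNL4B* at -0.05, beside 0.60 for *DHX38*. At the ends of genes, *OTUB2* was at -1.06, beside 0.72 for *DDX24*, and *CACNB3* at -0.64, beside -0.24 for *DDX23*. The difference in response between the genes of these pairs was not tested.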
